A study of Homo sapiens with 6 samples.

Results

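PTBP1, the polypyrimidine tract-binding protein, was the protein pulled down in these libraries, and the 10 genes described here are PTBP1 itself, its paralogs PTBP2 and PTBP3, and 7 genes for proteins that bind with it, beside it or against it on RNA (RAVER1, MATR3, KHSRP, U2AF1, U2AF2, CELF1 and MBNL1). They were taken by name from a table of 20024 genes, where they fill 11 rows because MATR3 is listed under both ENSG00000015479 and ENSG00000280987. The measure is RNA immunoprecipitation sequencing (RIP-seq), in which an antibody recovers a protein with the RNA attached to it and that RNA is sequenced. The 3 DCRT-KO and 3 WT libraries came from AC16 cells, labelled as heart cardiomyocytes, all with a PTBP1 antibody. DCRT-KO cells lack the long noncoding RNA DCRT and WT cells carry it. The sources used here do not say how the knockout was made or whether it is a single clone. No gene named DCRT is listed, so the knockout was not checked here.

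PTBP1 binds stretches of C and U in introns and untranslated regions, where it mostly keeps nearby exons out of the mRNA. It limits its own output and that of its paralogs: when it makes their transcripts skip or keep certain exons, these transcripts are broken down. PTBP2 is the neuronal paralog, which takes over when PTBP1 declines in developing neurons, and PTBP3 is a paralog with overlapping targets. Values here are per gene, so inclusion of single exons was not analysed.

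The level of a transcript is given in FPKM, fragments scaled to the gene's exon length and to the library's total, as the authors deposited it. Neither an input nor a control-antibody library was analysed here, so transcript abundance, PTBP1 binding and RNA carried along unbound cannot be told apart. In bulk samples, fewer cells of a type and less RNA per cell cannot be told apart either. Depth moved with genotype: the reads that the FPKM values imply summed to 373354 to 1380722 per DCRT-KO library and 1798841 to 2589080 per WT library. DCRT-KO library 3 stood apart from the other DCRT-KO libraries in depth and, as shown further on, in its GC trend. The differences of PTBP3 and MATR3 are given with and without that library. Of 14 cardiomyocyte markers, 8 had no read in any library, TNNT2, MYH6, MYH7 and NKX2-5 among them; the list summed to 1.59 to 14.6 FPKM in DCRT-KO and 5.04 to 7.61 FPKM in WT libraries. Of the other marker lists, the 7 fibroblast markers summed to 8.41 to 11.1 FPKM in DCRT-KO and 16.4 to 19.6 FPKM in WT libraries, nearly all of it PDGFRA, while DCN, LUM, POSTN and COL1A2 had no read; its part in the results was not tested. Markers of smooth muscle, endothelium and blood each summed to at most 3.03 FPKM in any library. Neuronal markers summed to 3.38 to 9.43 FPKM in DCRT-KO and 3.77 to 4.36 FPKM in WT libraries, with ELAVL3 and ELAVL4 at 0 reads. The 2 neuronal markers tested had higher values in DCRT-KO, and 0 of them passed with limma. RBFOX3, too low to be tested, averaged 0.088 FPKM in DCRT-KO (2 reads) and 0.850 FPKM in WT (52 reads).

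The members differ in how much of a PTB-type motif their transcripts hold. In the longest coding transcript of each gene in GENCODE 29 (GRCh38), the tetramer TCTT, read on the transcript strand with overlaps counted, occurred 9.51 times per kilobase in PTBP3, 7.70 in CELF1, 7.24 in PTBP2, 7.02 in MATR3 and 4.96 in MBNL1. The others had 1.39 per kilobase (RAVER1) to 3.34 (KHSRP), and PTBP1 itself had 2.98. The median over 11425 transcripts of tested genes was 5.09 per kilobase, and 2.21% of them were at or above PTBP3. The motif was rarer in GC-rich transcripts (Pearson r = -0.63 between TCTT density and GC content, across transcripts, which are not independent replicates). A match describes letters and is not evidence of a bound site. The longest unbroken C/T runs of PTBP1, PTBP2 and MATR3 are shown because such tracts are what the protein recognises. TCTT would stand in capitals, and none of these runs holds it. The longest runs of KHSRP, U2AF2 and MBNL1, which are not printed here, do hold TCTT.
PTBP1 (chr19:797186-797202, plus strand, 5' UTR, exon 1 of 14): ttttctccccctccccc
PTBP2 (chr1:96813661-96813688, plus strand, 3' UTR, exon 14 of 14): ctttttttttttttttttttttcctttc
MATR3 (chr5:139293776-139293802, plus strand, 5' UTR, exon 1 of 15): cctctccttttccctctccctttccct
Among transcripts within 25% of the same length, 37.1% held a C/T run at least as long as that of PTBP1, 24.0% as that of PTBP2 and 9.41% as that of MATR3.

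PTBP1 had the highest RIP level of the members in both genotypes. Its level was 111, 107 and 139 FPKM in DCRT-KO libraries 1, 2 and 3, against 127, 105 and 122 FPKM in WT libraries a, b and c. The groups overlapped, with 1996 reads in DCRT-KO and 5280 in WT behind them. In DCRT-KO 98.6% of the tested genes lay below PTBP1, and in WT 98.9% did. The log2 difference (DCRT-KO minus WT, on log2(FPKM + 1) where voom is not named) was 0.01 with a 95% interval of -0.37 to 0.39 (limma adjusted p = 0.977). PTBP1 (ENSG00000011304) lies on chromosome 19 at 797075 to 812327 (coordinates as deposited, on the GRCh38 build by their match to GENCODE 29).

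PTBP3 had the clearest difference of the PTB genes, with lower values in DCRT-KO. Its level was 21.1, 17.6 and 32.5 FPKM in DCRT-KO libraries 1, 2 and 3 (reads: 92, 54 and 370), against 42.8, 44.7 and 42.2 FPKM in WT libraries a, b and c (reads: 913, 663 and 718). The WT libraries lay close together, the DCRT-KO libraries were spread, and the groups did not overlap. The ratio of means was 0.549, and the log2 difference of -0.88 ± 0.22 (SE) missed the threshold of 0.05 with limma (adjusted p = 0.0588). It passed when the whole reads were tested with limma's voom (log2 difference -0.82 ± 0.19, adjusted p = 0.00772), and without DCRT-KO library 3 it was -1.13 (limma adjusted p = 0.00911). Without DCRT-KO libraries 1 and 2, the shallowest, it was -0.40; only 1 DCRT-KO library then remains, and limma's adjusted p of 0.228 assumes that it varies as the WT libraries do. PTBP3 (ENSG00000119314) lies on chromosome 9 at 112217716 to 112333667.

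PTBP2 had 7.46, 8.07 and 8.23 FPKM in DCRT-KO libraries 1, 2 and 3 (reads: 51, 39 and 147), against 11.1, 12.8 and 9.18 FPKM in WT libraries a, b and c (reads: 371, 299 and 245). All DCRT-KO libraries lay below all WT libraries, but the nearest ones, DCRT-KO library 3 and WT library c, were close. The log2 difference of -0.42 ± 0.20 (SE) did not pass with limma (adjusted p = 0.238) or voom (adjusted p = 0.149). PTBP2 (ENSG00000117569) lies on chromosome 1 at 96721665 to 96823738.

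**Figure D1:**
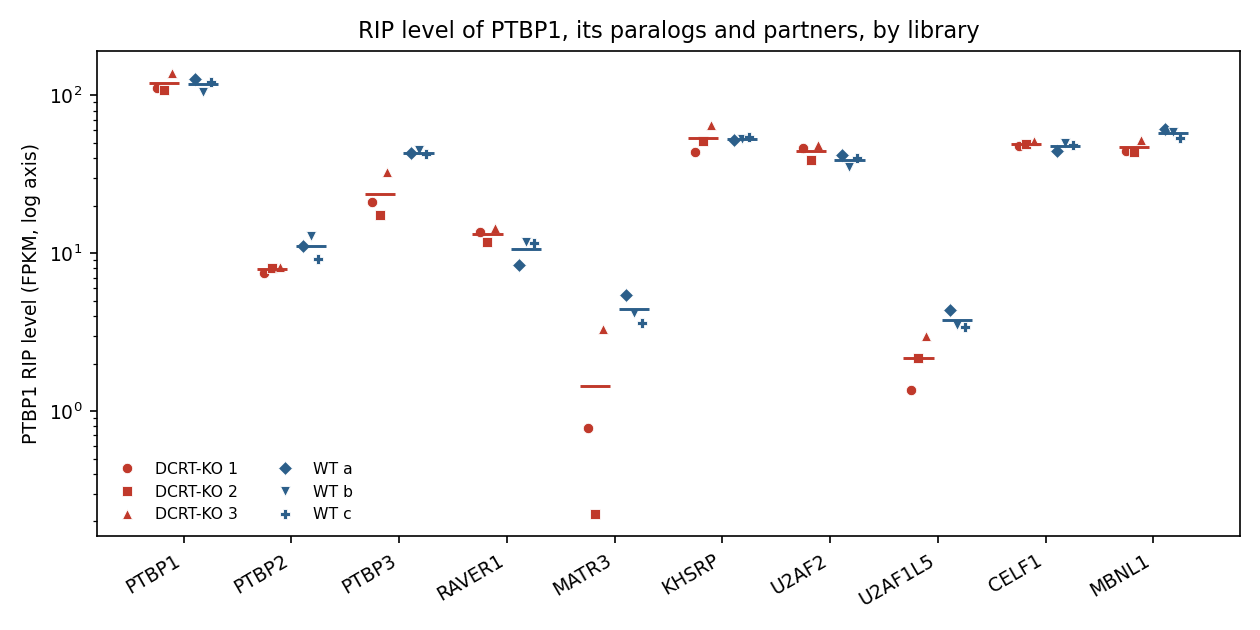
RIP level in FPKM (log axis) of each member in the 3 DCRT-KO libraries (red, left) and 3 WT libraries (blue, right); symbols are libraries and bars are group means. U2AF1L5 stands in for U2AF1, whose own row held 4 reads in all, and MATR3 is the row ENSG00000015479. PTBP1 is highest in both groups. PTBP2, PTBP3, MATR3, MBNL1 and U2AF1L5 have all DCRT-KO libraries below all WT libraries, and RAVER1 has all above. Of all tested genes, 30.3% do not overlap in either direction, and 14.8% do so with lower values in DCRT-KO.

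FPKM ratios among the PTB genes were also read within each library. They do not depend on how libraries are scaled to each other. They do carry each library's trend with GC content, described further on (PTBP1 has 59.4% GC, PTBP2 34.7% and PTBP3 36.6%). PTBP3 stood at 19.1, 16.3 and 23.5% of the PTBP1 level in DCRT-KO libraries 1, 2 and 3, against 33.8, 42.8 and 34.7% in the WT libraries a, b and c. Every DCRT-KO library had a lower FPKM ratio of PTBP3 to PTBP1 than every WT library, also library 3. The deposited lengths are 6883 bases for PTBP1, 12937 for PTBP2 and 8239 for PTBP3. Their longest coding transcripts have 3691, 12014 and 7995 bases, so the percentages do not give relative amounts of RNA. The comparison between groups does not depend on these lengths. The mean was 19.6% ± 3.58 in DCRT-KO and 37.1% ± 4.96 in WT (SD, n = 3 each), a log2 difference of the ratio of -0.93 ± 0.19 (SE). PTBP2 stood at 6.75, 7.52 and 5.93% of PTBP1 in DCRT-KO, against 8.74, 12.3 and 7.55% in WT libraries. Here the groups nearly touched, with 7.52% in DCRT-KO library 2 and 7.55% in WT library c. For both ratios the exact two-sided permutation test gave p = 0.1, the smallest that 3 against 3 libraries allow (0.1 after adjustment over the 3 ratios tested). With a smooth trend on GC content and length taken out of each library, an alternative chosen after the data were seen, the log2 difference of PTBP3 over PTBP1 was -0.33 ± 0.10 (SE) and the groups still did not overlap, at 22.5 to 24.9% in DCRT-KO and 27.6 to 34.0% in WT libraries. The exact two-sided permutation p was 0.1, and 0.15 after adjustment over the 3 ratios. The log2 difference of PTBP2 over PTBP1 then turned to 0.17 ± 0.29 (SE), with overlapping groups (exact two-sided permutation p = 0.6).

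**Figure D2:**
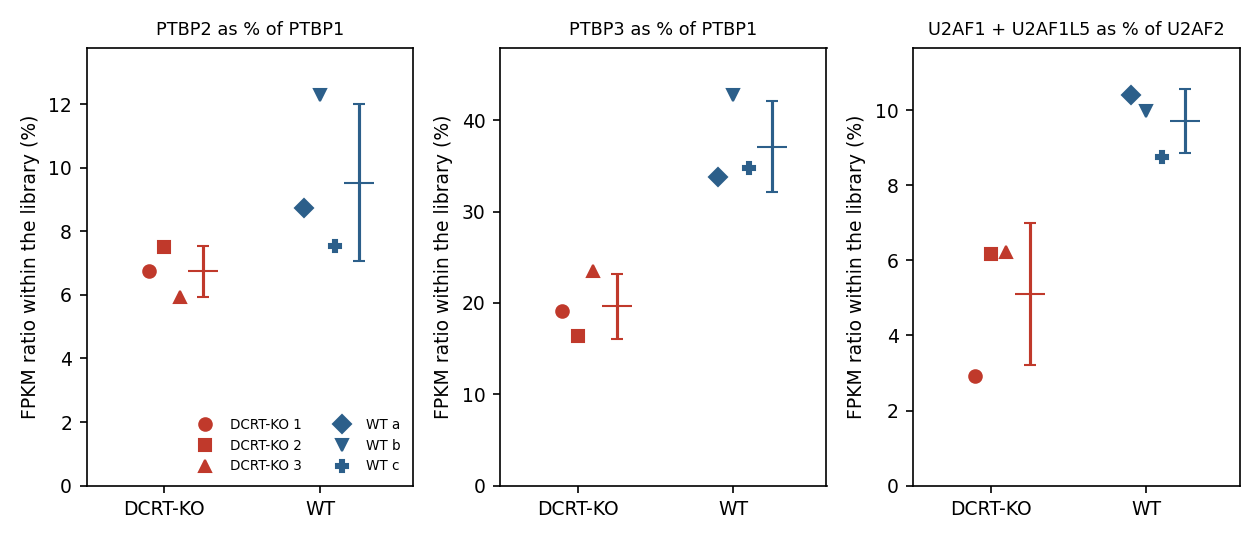
FPKM of 1 gene as a percentage of another in the same library, for DCRT-KO (red, left) and WT (blue, right); points are libraries, and bars are means ± SD of 3. PTBP3 averages 19.6% of PTBP1 in DCRT-KO and 37.1% in WT libraries, and in each panel the groups do not overlap. The values are as deposited, per kilobase of the deposited gene length, with no trend on GC content removed.

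RAVER1, MATR3 and KHSRP encode RNA-binding proteins that act with PTBP1. Raver1 is a corepressor that docks on PTBP1, and matrin 3 carries a similar docking motif and represses exons of its own. RAVER1 had 13.7, 11.8 and 14.4 FPKM in DCRT-KO libraries 1, 2 and 3 (reads: 36, 22 and 99), against 8.38, 11.7 and 11.6 FPKM in WT libraries a, b and c (reads: 108, 105 and 119). All DCRT-KO libraries were above all WT libraries, but DCRT-KO library 2 (11.83 FPKM) and WT library b (11.72 FPKM) nearly coincided. The log2 difference was 0.32 ± 0.20 (SE; limma adjusted p = 0.364), and 0.17 without WT library a. The deposited RAVER1 row overlaps AC011511.4 on the same strand, which had no read. RAVER1 (ENSG00000161847) lies on chromosome 19 at 10316212 to 10333638.

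MATR3 had the largest log2 difference of the tested members and rested on few reads. The row ENSG00000015479 had 0.783, 0.222 and 3.29 FPKM in DCRT-KO libraries 1, 2 and 3 (reads: 5, 1 and 55), against 5.46, 4.18 and 3.61 FPKM in WT libraries a, b and c (reads: 171, 91 and 90). The groups did not overlap, and DCRT-KO library 3 lay far above the other DCRT-KO libraries and close to WT library c. The log2 difference of -1.35 ± 0.44 (SE) did not pass with limma (adjusted p = 0.110) or voom (adjusted p = 0.0557). Without DCRT-KO library 3 it was -1.86 (limma adjusted p = 0.0142), and without DCRT-KO libraries 1 and 2 it was -0.32 (1 DCRT-KO library left). With a pseudocount of 0.1 FPKM in place of 1 it was -2.17 (limma adjusted p = 0.149). The second MATR3 row, ENSG00000280987, had 2 reads in DCRT-KO and 5 in WT. In GENCODE 29 the rows share 5141 exonic bases on the same strand, 42.5% of the exons of the first and 80.9% of those of the second, so how reads of the shared exons were counted is uncertain, and the FPKM of MATR3 may not stand for the whole gene. Both rows lie on chromosome 5, ENSG00000015479 at 139293648 to 139331677.

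KHSRP, a KH-domain protein that acts in splicing and in decay of AU-rich mRNAs, had similar group means. It had 44.0, 51.7 and 64.9 FPKM in DCRT-KO libraries 1, 2 and 3, against 52.0, 53.1 and 54.2 FPKM in WT libraries a, b and c. The WT libraries lay inside the range of the DCRT-KO libraries, and the 95% interval of the log2 difference was -0.40 to 0.39. KHSRP (ENSG00000088247) lies on chromosome 19 at 6413348 to 6424794.

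U2AF1 and U2AF2 are the small and large subunits of the factor that reads the end of an intron: U2AF2 binds the pyrimidine tract, for which PTBP1 competes, and U2AF1 binds the AG after it. U2AF2 had 46.5, 39.1 and 48.2 FPKM in DCRT-KO libraries 1, 2 and 3, against 42.0, 35.1 and 39.8 FPKM in WT libraries a, b and c. The groups overlapped, and the 95% interval of the log2 difference was -0.18 to 0.55. U2AF2 (ENSG00000063244) lies on chromosome 19 at 55654146 to 55674715. U2AF1 could not be compared in this way. Its row (ENSG00000160201, chromosome 21, 43092956 to 43107587) held 0, 1 and 0 reads in the DCRT-KO and 1, 0 and 2 reads in the WT libraries. U2AF1L5, a near-identical copy (ENSG00000275895) listed on the same chromosome at 6484623 to 6499261, held 63 reads in DCRT-KO and 273 in WT.

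The coding transcripts of the pair are nearly the same, and reads that fall on shared sequence cannot be assigned to either row. Those of equal length in GENCODE 29 differ at 2 of 1675 and at 1 of 1019 positions, and 88.4% of all windows of 100 bases in the coding transcripts of U2AF1 occur unchanged in those of U2AF1L5. The coding part of the exon with the start codon (capitals) is the same in both, on the minus strand.
U2AF1 (chr21:43107451-43107494, exon 1 of 8): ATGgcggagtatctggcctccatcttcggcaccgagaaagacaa
U2AF1L5 (chr21:6499129-6499172, exon 1 of 8): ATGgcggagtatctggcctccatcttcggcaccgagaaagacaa
The U2AF1 row held 1.18% of the reads of the pair, so the near-zero level of U2AF1 is a value of that row and says nothing of how much U2AF1 RNA was recovered. With both rows summed, a choice made after the data were seen, the pair had 1.36, 2.41 and 2.997 FPKM in DCRT-KO libraries 1, 2 and 3 (reads: 8, 10 and 46), against 4.38, 3.50 and 3.49 FPKM in WT libraries a, b and c (reads: 126, 70 and 80). The groups did not overlap. The log2 difference of -0.59 ± 0.29 (SE) did not pass with limma (adjusted p = 0.253). Set over U2AF2 in the same library, the pair stood at 2.93, 6.17 and 6.22% in DCRT-KO, against 10.4, 9.97 and 8.76% in WT libraries (exact two-sided permutation p = 0.1, the smallest possible; 0.1 adjusted over 3 ratios). The log2 difference of this ratio was -1.01 ± 0.37 (SE), and -0.65 ± 0.43 with the GC and length trend removed. There the groups nearly touched (7.550% in DCRT-KO library 2, 7.558% in WT library c). The exact two-sided permutation p was 0.1 (0.15 adjusted). The deposited lengths are 11112 and 11119 bases for the pair and 4115 for U2AF2. The longest coding transcripts of U2AF1 and U2AF2 have 1675 and 3022 bases, so the percentages do not give relative amounts of RNA. Reads counted in neither row would also be missing from the sum.

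CELF1 binds GU-rich elements and MBNL1 binds GC dinucleotides flanked by pyrimidines, and both switch muscle exons between fetal and adult forms, often in opposite directions. CELF1 had nearly equal levels, with 47.4, 49.5 and 51.3 FPKM in DCRT-KO libraries 1, 2 and 3, against 44.5, 49.6 and 48.6 FPKM in WT libraries a, b and c. The groups overlapped, and the 95% interval of its log2 difference was -0.27 to 0.38. Its row overlaps exons of PTPMT1 and NDUFS3 on the opposite strand over 140 and 234 bases. Per the labels' protocols the library kit kept strand; the sources used here do not say how counting used it. MBNL1 had 44.1, 44.0 and 52.2 FPKM in DCRT-KO libraries 1, 2 and 3 (reads: 233, 164 and 720), against 61.3, 58.4 and 53.9 FPKM in WT libraries a, b and c (reads: 1586, 1050 and 1111). The groups did not overlap, and the log2 difference of -0.30 ± 0.15 (SE) did not pass with limma (adjusted p = 0.263) or voom (adjusted p = 0.220). CELF1 (ENSG00000149187) lies on chromosome 11 at 47465933 to 47565569, and MBNL1 (ENSG00000152601) on chromosome 3 at 152243828 to 152465780.

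Across the 9 member rows that passed the filter of a mean of 1 FPKM, none passed with limma, against 3.55% of all 11445 tested genes (2.35% higher and 1.2% lower in DCRT-KO). By unadjusted p below 0.05, 2 did, PTBP3 and MATR3, against 23.6% of all tested genes. With voom 1 member passed, PTBP3, against 9.58% of all tested genes (3.94% lower in DCRT-KO). Without DCRT-KO library 3, limma called PTBP3 and MATR3 lower, against 7.17% of all tested genes. The filter left out both rows with almost no reads, U2AF1 and the second MATR3 row. The log2 difference was negative in 5 of the 9, against 52.8% of all tested genes, and positive in 4, and their median was -0.01, against -0.04 for all tested genes. The libraries of the groups did not overlap in 5 of the 9, against 30.3% of all tested genes. MATR3, PTBP3, PTBP2 and MBNL1 were the 4 of these with lower DCRT-KO levels, against 14.8% of all tested genes, and RAVER1 the 1 with higher. With so few members these shares describe the rows and are no test. Of all tested genes 1.30% had a lower log2 difference than MATR3 and 5.46% a lower one than PTBP3.

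**Figure D3:**
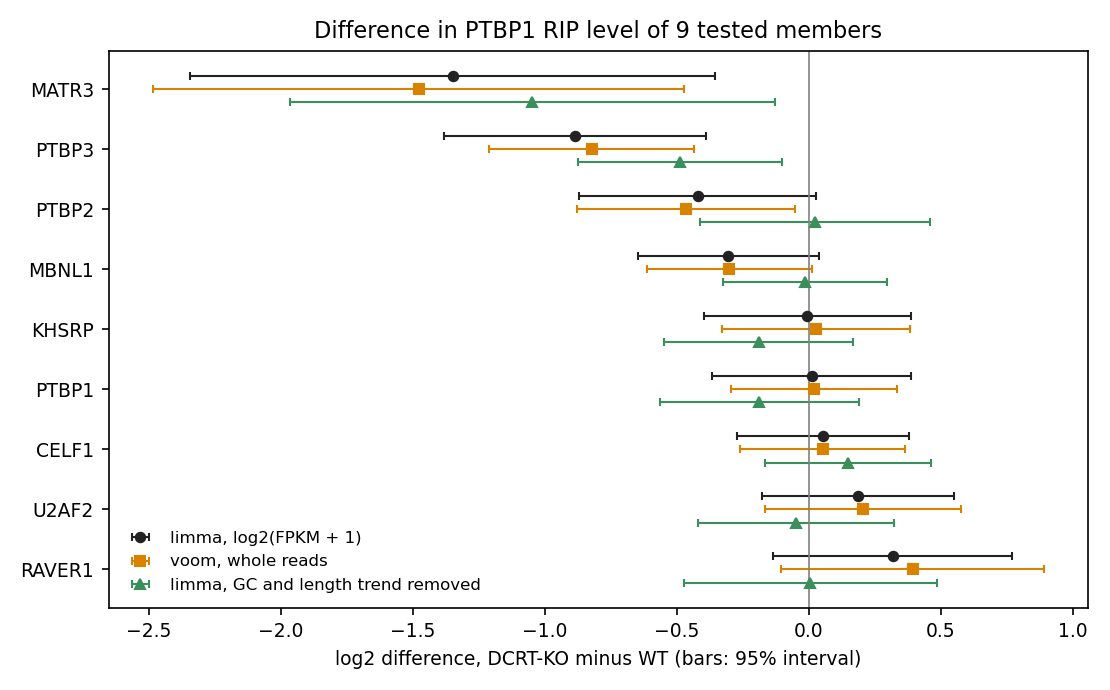
Log2 difference (DCRT-KO minus WT) of the 9 tested members with 95% intervals, from limma on log2(FPKM + 1), from voom on whole reads and from limma after a GC and length trend was taken out of each library. MATR3 and PTBP3 lie furthest below 0 in all 3, and PTBP2 and MBNL1 move to 0.02 and -0.02 once the trend is removed.

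PTBP1 headed the order of deposited FPKM in both genotypes, and PTBP3 and U2AF2 traded places in it. In DCRT-KO PTBP1 (119 ± 17.2 FPKM, mean ± SD, n = 3) was followed by KHSRP, CELF1, MBNL1 and U2AF2, which ran from 53.5 ± 10.6 to 44.6 ± 4.87 FPKM with overlapping ranges between neighbours. PTBP3 (23.7 ± 7.82), RAVER1 (13.3 ± 1.32) and PTBP2 (7.92 ± 0.406) then followed with no overlap, and MATR3 was lowest of those tested at 1.43 ± 1.64 FPKM. In WT PTBP1 (118 ± 11.7 FPKM) was followed by MBNL1 (57.9 ± 3.73) and KHSRP (53.1 ± 1.11), whose ranges overlapped, then by CELF1 (47.6 ± 2.70) and PTBP3 (43.3 ± 1.31), which overlapped, and by U2AF2 (39.0 ± 3.53). PTBP2 (11.04 ± 1.83) and RAVER1 (10.6 ± 1.89) overlapped in WT, and MATR3 had 4.42 ± 0.949 FPKM. PTBP3 thus stood above U2AF2 in WT and below it in DCRT-KO, without overlap in either, though by a narrow margin in WT (lowest PTBP3 library 42.25 FPKM, highest U2AF2 library 42.05 FPKM). Levels between genes are per kilobase of the deposited gene length, which is 8239 bases for PTBP3 and 4115 for U2AF2. Their longest coding transcripts have 7995 and 3022 bases, so the order of these genes in WT depends on which length is used. It also carries the trend with GC content described below (36.6% GC for PTBP3, 61.1% for U2AF2).

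The members with AT-rich transcripts had negative log2 differences, and those with GC-rich transcripts lay near 0 or above. All tested genes were divided into 5 equal groups by the GC content of their longest coding transcript. In the lowest group (30.2 to 41.0% GC) the median log2 difference was -0.34, and 78.4% of its genes were lower in DCRT-KO, while in the highest (58.3 to 74.5% GC) the median was 0.28 and 28.6% were lower. PTBP2 (34.7% GC), PTBP3 (36.6%), MATR3 (39.5%) and MBNL1 (39.9%) all fell in the lowest group, and PTBP1 (59.4%), KHSRP (59.2%), U2AF2 (61.1%) and RAVER1 (64.1%) in the highest, while CELF1 (47.1%) lay in the middle one. Set against the WT mean, the lowest group had medians of -0.41, -0.41 and -0.16 in DCRT-KO libraries 1, 2 and 3, and the highest had 0.25, 0.37 and 0.29. The trend at the AT-rich end was thus weaker in DCRT-KO library 3.

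With a smooth trend on GC content and length taken out of each library, PTBP2 had a log2 difference of 0.02 (limma adjusted p = 0.963), MBNL1 -0.02 (adjusted p = 0.966) and RAVER1 0.01 (adjusted p = 0.990). PTBP3 kept a negative value, -0.49 ± 0.17 (SE, 95% interval -0.87 to -0.10, limma adjusted p = 0.164), as did MATR3 (-1.05 ± 0.41, 95% interval -1.97 to -0.13, adjusted p = 0.200). PTBP1 had -0.19 (adjusted p = 0.566) and KHSRP -0.19 (adjusted p = 0.538).

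**Figure D4:**
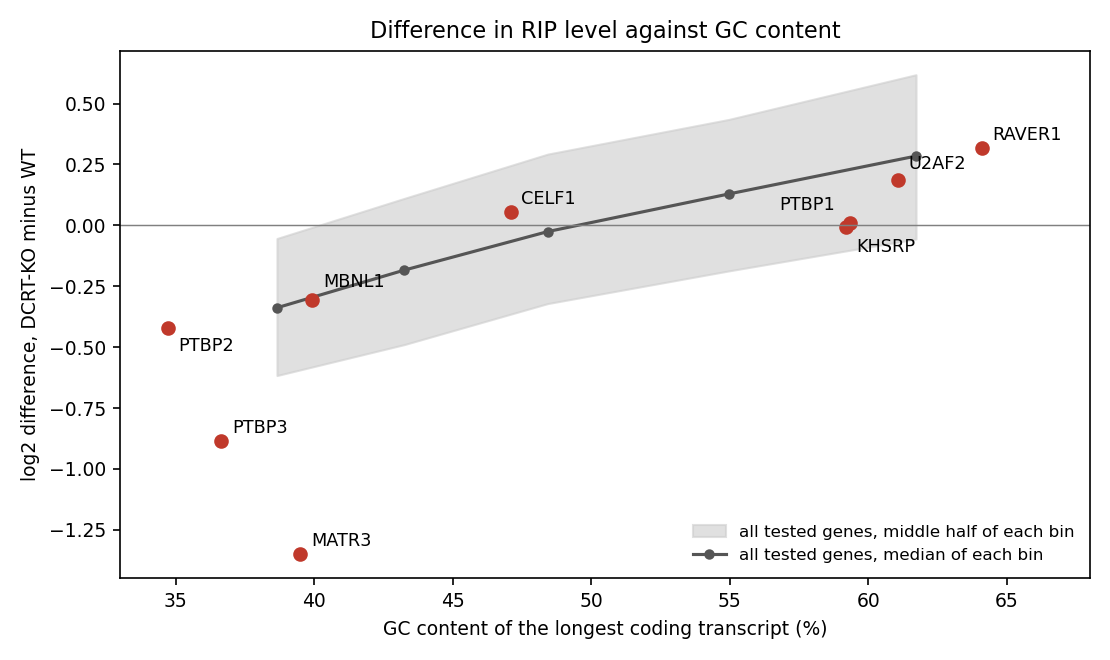
Log2 difference (DCRT-KO minus WT) against the GC content in percent of the longest coding transcript; red points are the 9 tested members, the line joins the medians of 5 equal groups of all tested genes, and the band runs between the quartiles of each group. Line and band run from 38.7 to 61.7% GC, the median GC of the lowest and highest groups. PTBP2 and PTBP3 lie to their left and RAVER1 to their right. PTBP3 and MATR3 have values below the lower quartile of the lowest group (-0.62), while MBNL1 lies near the line.

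Position was compared in the same descriptive way, with tested genes within 5 Mb on either side. Around PTBP3, 30 of 44 neighbours were lower in DCRT-KO with a median log2 difference of -0.23, and 9.09% of them lay below PTBP3. Around MATR3, 42 of 75 were lower with a median of -0.04, and 2.67% lay below MATR3. PTBP2 stood among 37 neighbours of which 33 were lower, with a median of -0.40 close to its own -0.42, and MBNL1 (-0.30) among 35 of which 27 were lower, with a median of -0.20. On chromosome 19, which carries 4 members and whose 703 tested genes had a median of 0.20, the neighbours of PTBP1 had a median of 0.35, those of KHSRP 0.30, those of RAVER1 0.23 and those of U2AF2 0.08; the windows of PTBP1, KHSRP and RAVER1 share genes. PTBP1 lay above 20.9% of its 110 neighbours. CELF1 had 43 neighbours with a median of -0.02. The median GC content of the neighbours was 39.9% around PTBP2, 41.6% around MBNL1, 46.3% around PTBP3 and 49.3% around MATR3. It was 55.3% around U2AF2, 56.2% around CELF1, 59.9% around RAVER1, 61.3% around KHSRP and 62.9% around PTBP1. Whether position adds anything to the trend with GC content was not tested.

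Further genes of the same network were described from a pair of lists. Of 29 co-regulators and paralogs of the members, 21 were tested, 17 of them with lower and 4 with higher values in DCRT-KO, at a median of -0.20 against -0.04 for all tested genes, of which 52.8% were lower. The median GC content of the 21 was 44.7%, and in the group of all tested genes with 41.0 to 45.7% GC the median was -0.18 and 65.9% were lower. None passed with limma, and 5 had an unadjusted p below 0.05, against 23.6% of all tested genes. With voom 1 passed, PCBP2, against 9.58% of all tested genes. Its highest members were NONO, a partner of SFPQ, at 99.6 ± 12.7 FPKM in DCRT-KO and 115 ± 9.13 in WT (SD, n = 3 each), and HNRNPK, a poly(C)-binding protein, at 41.8 ± 7.26 FPKM in DCRT-KO and 47.7 ± 2.57 in WT. PCBP2, another poly(C)-binding protein, chosen after its values were seen, had 4.78, 2.70 and 9.96 FPKM in DCRT-KO libraries 1, 2 and 3, against 12.7, 12.2 and 11.5 FPKM in WT libraries a, b and c (voom adjusted p = 0.0490; limma log2 difference -1.09 ± 0.35 SE, adjusted p = 0.105). Without DCRT-KO library 3 the difference was -1.50 (limma adjusted p = 0.0126). Without DCRT-KO libraries 1 and 2 it was -0.26 (1 DCRT-KO library left).

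Of 23 genes analysed that act with U2AF at the branch point and 3' splice site, 12 had higher and 11 lower values in DCRT-KO, at a median of 0.04. None passed with limma, and 6 had an unadjusted p below 0.05, against 23.6% of all tested genes. With voom 1 passed, against 9.58% of all tested genes: the helicase DHX15, at 17.7 ± 1.51 FPKM in DCRT-KO against 26.4 ± 0.385 FPKM in WT (voom adjusted p = 0.0449; named after its values were seen). The limma log2 difference of DHX15 was -0.55, and -0.33 with the GC and length trend removed. SF3B4, of the U2 snRNP, averaged 183 ± 34.9 FPKM in DCRT-KO and 176 ± 20.5 FPKM in WT libraries, a level above that of PTBP1. SF1, which binds the branch point, averaged 70.0 ± 11.5 FPKM in DCRT-KO and 80.6 ± 2.80 FPKM in WT libraries.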

How the data were processed

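The authors deposited 1 table of FPKM, with a gene length, for 6 PTBP1 RIP libraries. Their tools included cutadapt 1.2.1 per the submitters' processing notes; an aligner, a counting tool and a genome build are each not given in the sources used. Start and end matched GENCODE 29 for 12693 of 20024 genes. DCRT-KO columns carry sample names. WT headers repeat a number, so WT columns were matched to the group only and are called a, b and c. The number of per-sample columns left unused was 0. Multiplying FPKM by length gave whole multiples of 1 step per library for 100% of values (tolerance 1e-06), hence whole reads. Replicates differed beyond sampling noise (chi-square over its degrees of freedom, 2.82 to 5.88). Whether replicates are separate cultures is not labelled, so the p-values reflect only how much these libraries vary, possibly for technical reasons.

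The 11445 genes averaging at least 1 FPKM were tested two-sided with limma 3.58.1 (R 4.3.3) on log2(FPKM + 1), with a mean-dependent variance prior, Benjamini-Hochberg adjustment over all of them and a threshold of 0.05. Differences on that scale understate the change of low genes. Limma's voom was run on the whole reads after scaling by trimmed means of log ratios. Within-library ratios were compared by exact permutation (SciPy 1.17.1); U2AF1 alone over U2AF2 was not compared, because some libraries had no U2AF1 read. GC content came from the longest coding transcript in GENCODE 29. Some sequences are not reported here. On 5 simulated tables of 11445 genes with the depths of these libraries, limma found 40.8% of 2-fold and 85.0% of 4-fold changes, and voom 67.0% and 88.8%. The simulated tables had the same spread setting for every gene and for both groups, no GC trend and no library that stood apart. Their spread was not checked against the replicates here, so these rates may be too high and may not hold here. Members and lists were chosen with earlier results of these data known. All 10 members are named; each further list gives its genes past the threshold or, where none passed, the 2 with the highest mean, and others are marked as chosen later. Alternatives covered the pseudocount, filter, scaling, variance model, depth, GC trend and libraries left out.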

Additional observations from a re-analysis of the deposited data

How the results depend on the processing

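No paired analysis was possible because 2 WT columns share a replicate number. No member passed with limma as reported. PTBP3 passed with a filter of 5 FPKM (log2 difference -0.88), median-of-ratios scaling (-0.88), quantile normalization (-0.97), voom (-0.82) and voom with quality weights (-0.94), and ran from -1.13 to -0.70 with 1 library left out; over all 19 alternatives its limma or voom adjusted p ran from 0.00138 to 0.228. MATR3 passed with quality weights (-2.09), was -2.17 with a pseudocount of 0.1, and ran from -1.86 to -0.96 with 1 library left out. So 1 member was called lower with the 5 FPKM filter, median-of-ratios, quantile and voom, 2 with quality weights, and 0 to 2 with 1 library left out. Beside this, 179 of all 7099 tested genes were called lower with the 5 FPKM filter. Of 11445 tested genes, 179 were called lower with median-of-ratios, 278 with quantile, 451 with voom and 487 with quality weights.

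The small differences changed sign: PTBP1 was -0.26 with quantile normalization, -0.015 rescaled without mitochondrial genes, -0.022 with quality weights, -0.19 with the GC trend removed and -0.10 to 0.078 with 1 library left out. KHSRP was 0.027 with voom, 0.29 without the 2 shallowest libraries and -0.15 to 0.12 with 1 left out. With the GC trend removed PTBP2 was 0.023 and U2AF2 -0.048, and CELF1 was -0.072 with quantile normalization. The cause was not tested.

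Of all tested genes 269 were higher and 137 lower. These counts were 72 and 50 with no filter, 70 and 64 without a variance trend, 645 and 451 with voom, 822 and 487 with quality weights, 30 and 15 with all libraries thinned to 373354 reads, 98 and 61 with the GC trend removed, and 27 and 11 without the 2 shallowest, which leaves 1 DCRT-KO library. Lower calls were 90 with a pseudocount of 0.1 and 278 with quantile normalization. With 1 library left out, 0 to 707 were higher and 0 to 821 lower, the most without DCRT-KO library 3. Of the co-regulators 1 was called higher with quantile normalization and 1 lower with voom and with quality weights (0 to 1 in each direction with 1 library left out). Of the branch point list 1 was called lower with voom and with quality weights (0 to 2 in each direction with 1 left out). The ratio of PTBP2 to PTBP1 turned to 0.17 with the GC trend removed, chosen after the data were seen, and kept its sign in the other 9 alternatives; PTBP3 over PTBP1 kept its sign in 10 and the U2AF1 pair over U2AF2 in 8. Depth limits RAVER1, MATR3 and the U2AF1 pair most, with 1 to 99 reads in each DCRT-KO library.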
